A study of Homo sapiens with 16 samples.

Results

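H3K9ac and H3K27ac were compared within A2780, a cPt-sensitive (cisplatin-sensitive) epithelial ovarian cancer (EOC) line derived from an endometrioid adenocarcinoma. The autosomal peaks of both lists were merged wherever they shared at least 1 bp, and each merged region was classed as both marks, H3K27ac alone or H3K9ac alone. This gave 34989 regions in A2780, whereas merging all 8 lists of the series gave 58336. The cells of this comparison were grown without cPt and carried no shRNA. Per the paper, harvested cells were washed in PBS with Trichostatin A. Mononucleosomes were prepared, received a *D. melanogaster* spike-in of 5% of the total, and were precipitated with an antibody against H3K27ac (Abcam ab4729) or H3K9ac (Abcam ab12179). The other 6 lists were looked up at these regions. They hold H3K27ac and H3K9ac in A2780cis, the resistant derivative kept in cPt, and H3K27ac in CAOV4 (a high-grade serous EOC line), in its resistant derivative CAOV4cis, and in A2780 after 1 week of *MBD3* knockdown with shMBD3.26 or shMBD3.232. There was 1 library per line and mark, so no difference between the marks or lines has a replicate check and no p-value is given. Intervals of shares are 95% Wilson intervals, which cover counting error only.

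Acetylation of histone H3 marks chromatin at active promoters and enhancers. H3K27ac is written mainly by EP300 and CREBBP and is widely used to tell active from poised enhancers, and wide or clustered H3K27ac domains are the usual basis for calling super-enhancers. H3K9ac is written mainly by KAT2A and KAT2B, the acetyltransferases GCN5 and PCAF, and is best known from active promoters, although active enhancers carry it too.

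The lists give the position and width of each peak but no strength, since the deposited score was 0 in every row, and they give no read depth. A region without a listed peak may therefore still carry signal. H3K27ac had 27932 autosomal peaks with a median width of 2200 bp, which covered 96.7 Mb. H3K9ac had 22438 autosomal peaks with a median of 1600 bp, covering 54.5 Mb. The H3K9ac list was thus shorter in number, peak width and covered length, with 0.564 bp covered for each bp of H3K27ac. All of these peaks started and ended on multiples of a step of 200 bp and lay at least 1000 bp from the next peak of their list. No peak was listed on chromosomes 20, 21 and 22, and on chromosomes 1 to 12 the lists ended before the chromosome does, so these parts are missing from every count. On chromosome 19 the last peaks ended at 59110800, and the last H3K27ac peak on the mitochondrial sequence ended at 16299. The latter is the length of the mouse mitochondrial sequence and not of the human one, and the numbered chromosomes with peaks, 1 to 19, are those that the mouse has. Whether the lists were limited to mouse chromosome lengths was not tested, and positions are given as listed.

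The marks met more often when counted from H3K9ac than when counted from H3K27ac. An H3K27ac peak lay at 14929 of the 22438 H3K9ac peaks, or 66.5% (65.9% to 67.1%). In the other direction, 12685 of the 27932 H3K27ac peaks overlapped an H3K9ac peak, or 45.4% (44.8% to 46.0%). This order depended on the H3K27ac list. With that of A2780 cells carrying shMBD3.232 in place of cells without shRNA, the shares were 58.2% of H3K9ac peaks and 58.9% of H3K27ac peaks. After merging, 12233 regions had both marks, or 35.0% (34.5% to 35.5%). H3K27ac alone was the largest class by number, with 15247 regions or 43.6% (43.1% to 44.1%), and H3K9ac alone the smallest, with 7509 regions or 21.5% (21.0% to 21.9%). The order of the classes depended on the lists and on the width of the peaks. Both marks was the largest class with peaks over 2 kb only, with 7109 regions against 6789 of H3K27ac alone, and also with the wider 50% of each list, with equal numbers of peaks, with partners up to 5 kb apart and with the shMBD3.232 list. With the shMBD3.232 list, H3K9ac alone (9369 regions) also outnumbered H3K27ac alone (7788). With the shMBD3.26 list, both marks (11394 regions) and H3K27ac alone (11425) were nearly equal.

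By length, the order was different. Regions with both marks had a median width of 4600 bp and made up 77.2 Mb, or 71.3% of the merged length. H3K27ac-alone regions had a median of 1200 bp and made up 25.3 Mb. H3K9ac-alone regions had a median of 400 bp and made up 5.83 Mb. Single steps of the grid were common among the latter, with 2721 regions of 200 bp, against 2233 among the H3K27ac-alone regions and 11 among those with both marks. Only 466 of the H3K9ac-alone regions were over 2 kb and 6 were over 5 kb, so that single-mark H3K9ac was listed as small patches rather than as domains.

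In base pairs, 42.9 Mb carried a peak of both marks. This was 78.7% of the length covered by H3K9ac, 44.4% of that covered by H3K27ac and 39.6% of the 108.3 Mb covered by either. Beyond the shared length, H3K27ac covered 53.8 Mb, of which 28.5 Mb (53.0%) lay in regions that also had H3K9ac, as the parts of a domain that H3K9ac did not reach. The remaining 25.3 Mb were the H3K27ac-alone regions. H3K9ac outside H3K27ac came to 11.6 Mb, of which 5.81 Mb (49.9%) lay in regions with both marks.

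Wider peaks of both marks more often had a listed partner. Up to 1 kb, 11.9% (11.2% to 12.6%) of the H3K27ac peaks overlapped H3K9ac. The share was 30.7% at 1 to 2 kb, 60.0% at 2 to 5 kb, 85.2% at 5 to 10 kb and 94.6% at 10 to 20 kb. Of the 377 H3K27ac peaks over 20 kb, 375 overlapped H3K9ac, or 99.5% (98.1% to 99.9%). Such wide domains in A2780 were therefore nearly always listed with both marks. H3K9ac reached this level at smaller widths, with a partner at 33.9% (32.9% to 35.0%) up to 1 kb, 69.6% at 1 to 2 kb and 93.3% at 2 to 5 kb. All 347 H3K9ac peaks of 10 to 20 kb and all 95 over 20 kb overlapped H3K27ac. The same order of width classes was found in A2780cis, where H3K9ac peaks up to 1 kb had a partner more often, at 43.6% (41.9% to 45.2%). A wider peak has more bases that can be overlapped, and the part of this in the shares was not tested.

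**Figure D1:**
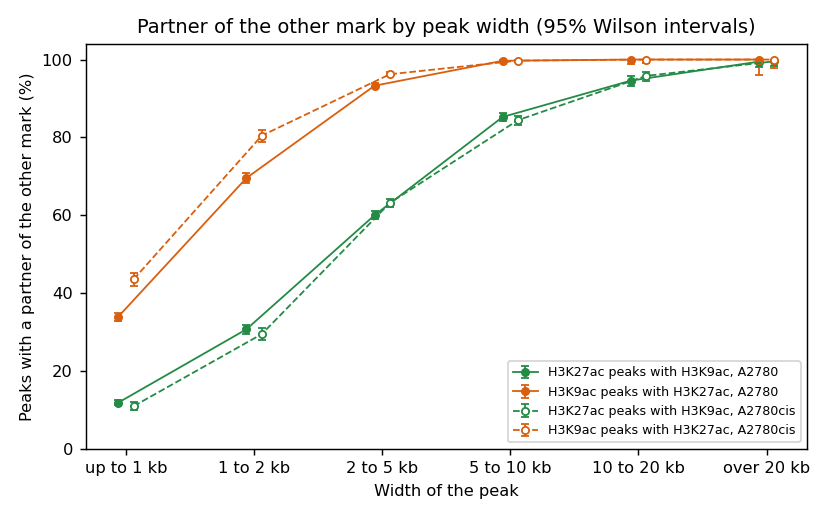
Share of peaks with a partner of the other mark (y axis, %) by width of the peak (x axis), for H3K27ac (green) and H3K9ac (orange) in A2780 (filled points, solid lines) and A2780cis (open points, dashed lines), with 95% Wilson intervals as bars. In A2780 the shares run from 11.9% in the narrowest to 99.5% in the widest class for H3K27ac and from 33.9% to 100% for H3K9ac.

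Nesting was mostly of H3K9ac inside H3K27ac. Of the H3K9ac peaks, 9128 lay wholly within 1 H3K27ac peak, or 40.7% (40.0% to 41.3%) of all and 61.1% (60.4% to 61.9%) of those with a partner. In 7251 of these both edges of the H3K9ac peak were inside. Another 4264 H3K9ac peaks crossed an edge, and 1537 (6.85%) contained an H3K27ac peak. In contrast, 1725 H3K27ac peaks were nested in an H3K9ac peak, or 13.6% (13.01% to 14.2%) of those with a partner. H3K9ac peaks were the narrower ones, as given above, and the part of this in the nesting was not tested.

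Most regions with both marks were simple. One peak of each mark made up 10127 of the 12233 regions, or 82.8% (82.1% to 83.4%). A single H3K27ac peak with at least 2 H3K9ac peaks was found in 1690 regions (13.8%), whereas a single H3K9ac peak with at least 2 H3K27ac peaks was found in 250 (2.04%). A domain split into several peaks was thus more often continuous in the H3K27ac list and broken in the H3K9ac list. The H3K9ac list also covered less length, as given above, and the part of this in the splitting was not tested. There were 74 H3K27ac peaks with at least 5 H3K9ac peaks. Shared boundaries were uncommon. Among the 15381 overlapping pairs of peaks, 8.54% started and 8.80% ended at the same grid position, and 141 pairs were equal at both edges. Near misses on this grid were few, since 372 of the H3K9ac-alone peaks (4.95%) and 342 of the H3K27ac-alone peaks (2.24%) lay at most 200 bp from a peak of the other mark.

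Within regions with both marks, H3K9ac covered a median of 0.704 of the length of H3K27ac, with quartiles of 0.462 and 1. In the regions with 1 peak of each mark, the median widths were 3600 bp for H3K27ac and 2400 bp for H3K9ac. H3K9ac covered more than H3K27ac in 2594 regions (21.2%), the same length in 488, and less than 50% of the H3K27ac length in 3331 (27.2%). In these pairs the ratio was lower for wider H3K27ac peaks, with a median of 1.40 up to 1 kb, 0.730 at 2 to 5 kb and 0.508 at 10 to 20 kb. It was 0.821 in the 29 single pairs over 20 kb, with quartiles of 0.450 and 0.928. The H3K27ac peaks over 20 kb with several H3K9ac peaks are not in this set. The H3K27ac width is also the denominator of the ratio, and its part in the lower ratios of wider peaks was not tested.

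H3K9ac lay towards the middle of the H3K27ac peaks that overlapped it. In H3K27ac peaks of 2 to 5 kb with a partner, H3K9ac covered the central positions in 77.3% and the outermost positions in 38.7%. At 5 to 10 kb the values were 72.5% and 30.4%, and at 10 to 20 kb they were 63.8% and 29.5%. Over 20 kb the plateau was broad, with 71.4% in the centre and 39.1% at the edges. In single pairs, the centres of both peaks were a median of 500 bp apart (quartiles 200 and 1000 bp), and 52.1% were within 500 bp. A narrower peak that must overlap a wider one also covers its middle more often than its edges, and how much of the profile this gives was not tested.

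**Figure D2:**
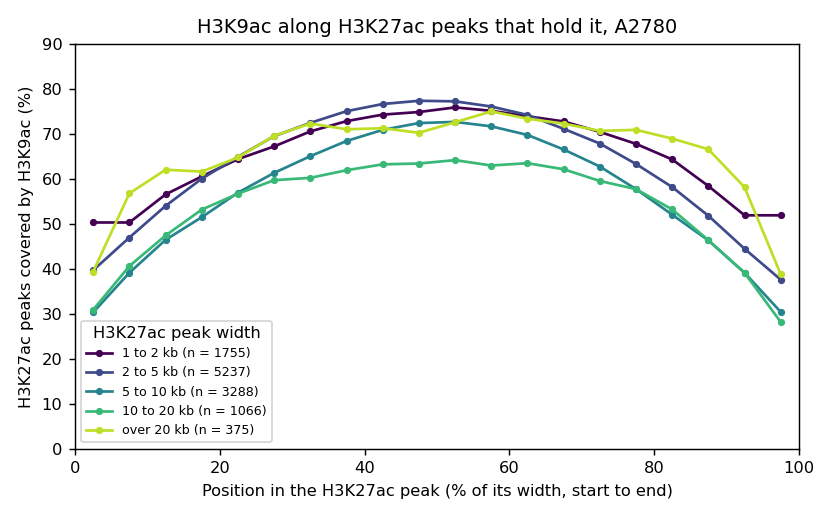
Share of H3K27ac peaks in which H3K9ac covers a position (y axis, %) along the peak from its start to its end (x axis, % of its width, 20 bins), for A2780 H3K27ac peaks that overlap H3K9ac, in 5 width classes (lines). H3K9ac is most frequent near the middle in each class, for example 77.3% in the centre and 38.7% at the edges at 2 to 5 kb.

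Domains with both marks included the widest regions of the comparison. The first lay at chr2:172846001-172992400 and measured 146.4 kb, with 4 H3K27ac peaks that covered 140.2 kb and 6 H3K9ac peaks that covered 136.8 kb. H3K9ac was listed on 93.2% of its H3K27ac length. It was followed by chr1:172047601-172165400 with 117.8 kb, where H3K9ac was listed on 93.9% of the H3K27ac length. The third, chr12:54599201-54699000, held 2 H3K27ac peaks and 9 H3K9ac peaks. It is also among the regions with the most H3K9ac peaks in 1 H3K27ac peak, with H3K9ac on 76.3% of its H3K27ac length. At chr13:91727801-91823000, also among the widest with 95.2 kb, 6 H3K9ac peaks covered 87.8% of the single H3K27ac peak. The other regions with many H3K9ac peaks varied in how far H3K9ac filled them. At chr7:10135201-10197600, 8 H3K9ac peaks covered 74.9% of the H3K27ac length, and neither mark had a peak in A2780cis. The 42.0 kb region at chr7:18525001-18567000 held 9 H3K9ac peaks on 48.6% of its H3K27ac length and was likewise without a peak in A2780cis. At chr7:15853001-15897800, 8 H3K9ac peaks covered 45.5% of the H3K27ac length in A2780, whereas in A2780cis both marks covered the region nearly alike, H3K27ac 89.7% and H3K9ac 88.4%.

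How far H3K9ac filled a domain was also given for all wide H3K27ac peaks. Over 20 kb, the median share covered by H3K9ac was 71.6%, with quartiles of 49.6% and 84.6%. It was 74.3% in the 230 of these that were covered for more than 50% by H3K27ac in A2780cis. In the 118 that were covered for at most 10% there, it was 60.8% (quartiles 35.5% and 78.3%). At 10 to 20 kb, the corresponding medians were 54.0% in 799 peaks and 39.8% in 215 peaks. The quartiles of these sets overlapped, and no test was made with 1 library per mark.

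Wide H3K27ac without H3K9ac was rare in A2780. Only 2 of the H3K27ac-alone regions were over 20 kb, and both lay on chromosome 3, at chr3:106045001-106070400 and chr3:106087001-106108200. In A2780cis, H3K27ac covered both of them fully, and H3K9ac covered 92.9% of the former and 81.1% of the latter. The same was seen at chr7:15716601-15736200, a region of 19.6 kb in which H3K9ac covered 88.8% in A2780cis and had no peak in A2780. These regions held H3K27ac in the lists of both lines but H3K9ac in the A2780cis list only. Their H3K27ac was not listed to the same extent in the other A2780 lists. With shMBD3.26, H3K27ac covered 12.6% and 25.5% of the chromosome 3 regions and 65.3% of the chromosome 7 region. With shMBD3.232, the chromosome 3 regions had no peak and the chromosome 7 region was covered for 30.6%. The other members of the 5 widest, chr14:100028001-100047800 and chr5:50253801-50272600, had no H3K9ac peak in either line.

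The widest H3K9ac-alone regions were narrower. They measured 7.4 kb at chr6:43851801-43859200, 6.2 kb at chr3:52534401-52540600, 5.6 kb at chr9:66522601-66528200 and at chr17:36366401-36372000, and 5.4 kb at chr2:173007401-173012800. None of these 5 had a peak of either mark in A2780cis. Such peaks were uncommon over all H3K9ac-alone regions too, with H3K27ac at 10.8% and H3K9ac at 6.33% of them. At 2 to 5 kb these shares were 19.8% and 13.04%. Of the 5, H3K27ac with shMBD3.26 covered 8.11% of the first and with shMBD3.232 9.68% of the second, and in CAOV4 it covered 67.9% of the third. Among regions with both marks, the largest excess of H3K9ac was at chr3:49457801-49471200, where H3K9ac covered 13.4 kb and H3K27ac 4.6 kb. At chr16:74424001-74433400, H3K9ac covered 9.4 kb and H3K27ac 2.0 kb. The other members of the 5 with the largest excess all lay on chromosome 1, at chr1:156817801-156825000, chr1:160308401-160319600 and chr1:154829201-154843200.

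Distances were measured from single-mark regions to the nearest region of each other class. H3K27ac-alone regions were a median of 14.6 kb from the nearest region with both marks (quartiles 4.2 and 44.0 kb), and 27.8% were within 5 kb of one. H3K9ac-alone regions were at a similar distance, with a median of 15.8 kb (quartiles 4.8 and 46.8 kb) and 25.9% within 5 kb. More than 100 kb away were 12.2% of the H3K27ac-alone and 11.1% of the H3K9ac-alone regions.

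The classes were next looked up in the other lists, which were not used to make them but mostly hold H3K27ac, a mark that defines them. Regions with both marks had an H3K27ac peak in 88.3% (87.7% to 88.9%) of cases with shMBD3.26 and in 85.6% (84.9% to 86.2%) with shMBD3.232. In H3K27ac-alone regions these shares were 36.9% (36.2% to 37.7%) and 34.4% (33.6% to 35.2%). In H3K9ac-alone regions they were 7.54% (6.96% to 8.16%) and 7.43% (6.86% to 8.05%). A region with H3K9ac in A2780 was thus listed with H3K27ac after knockdown far more often when H3K27ac was also listed in A2780 itself. The same mark in the same line divided these classes, so this gap partly restates the classing. The order was the same in CAOV4, with H3K27ac peaks at 60.5%, 19.96% and 10.2% of the regions with both marks, H3K27ac alone and H3K9ac alone, respectively. In CAOV4cis the shares were 60.5%, 21.7% and 11.2%.

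The A2780cis H3K9ac list measures the same mark in the related line. It had a peak at 68.8% (67.9% to 69.6%) of the regions with both marks, at 16.0% (15.4% to 16.6%) of the H3K27ac-alone regions and at 6.33% (5.80% to 6.90%) of the H3K9ac-alone regions. H3K9ac-alone regions of A2780 were therefore listed with H3K9ac in A2780cis less often than regions in which A2780 had no H3K9ac peak at all. Counted over all 6 other lists, 95.9% of the regions with both marks, 63.7% of the H3K27ac-alone and 30.9% of the H3K9ac-alone regions had a peak in at least 1. A peak in all 6 was found at 5345 regions with both marks (43.7%), 592 H3K27ac-alone regions (3.88%) and 7 H3K9ac-alone regions. Of these 6 lists, 5 hold H3K27ac, the mark whose absence in A2780 defines the H3K9ac-alone class. Low pooled counts for that class are therefore partly built in. In those 5 lists alone, 95.6%, 62.9% and 29.4% of the classes had a peak in at least 1.

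Since the classes differ in width, regions of 2 to 5 kb were also compared. With shMBD3.26, H3K27ac was listed at 86.7% of 5167 regions with both marks, 59.4% of 3490 H3K27ac-alone regions and 17.0% (13.8% to 20.7%) of 460 H3K9ac-alone regions. In A2780cis, H3K9ac was listed at 66.5%, 25.4% and 13.04% (10.3% to 16.4%) of them. In CAOV4, H3K27ac was listed at 58.6%, 30.1% and 23.9% (20.2% to 28.0%). The order of the classes thus held in this width class in each of the 6 lists, and the gap between the single-mark classes was smaller in CAOV4 and CAOV4cis than in the A2780 lists.

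**Figure D3:**
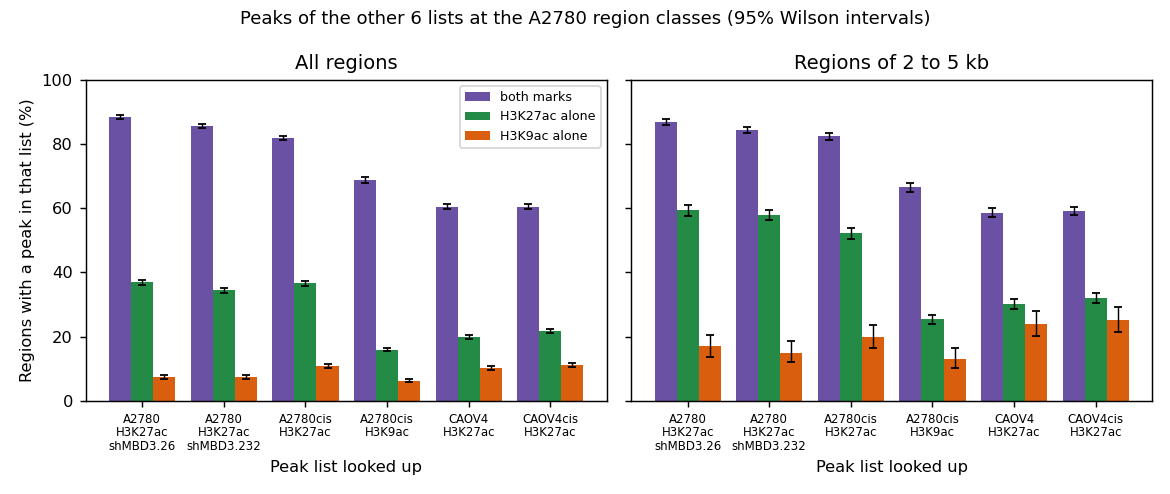
Share of A2780 regions (y axis, %) with a peak in each of the 6 other lists (x axis), for all regions (left) and regions of 2 to 5 kb (right), by class (purple both marks, green H3K27ac alone, orange H3K9ac alone), with 95% Wilson intervals as bars. Regions with both marks are highest and H3K9ac-alone regions lowest in every list, for example 88.3%, 36.9% and 7.54% with shMBD3.26 over all regions.

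The same classing in A2780cis is given for comparison. Of 22664 regions there, 46.7% (46.1% to 47.3%) had both marks and 11.7% (11.3% to 12.2%) had H3K9ac alone, against 35.0% and 21.5% in A2780. H3K27ac alone took similar shares, 41.6% (40.9% to 42.2%) in A2780cis and 43.6% in A2780. The base pairs of H3K9ac lay inside H3K27ac for 87.1% in A2780cis and 78.7% in A2780. The geometry differed less, with nested H3K9ac at 62.6% of the partnered peaks in A2780cis and 61.1% in A2780, and median width ratios of 0.727 and 0.704. The A2780 H3K9ac list also holds more narrow peaks, 8475 up to 1 kb against 3329 in A2780cis, and with 1 library each the line and the library cannot be told apart.

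Along the chromosomes of A2780 the classes were fairly even. Regions with both marks took between 31.4% (28.4% to 34.6%) on chromosome 13 and 40.0% (38.2% to 41.8%) on chromosome 19. H3K9ac alone had the wider range, from 13.1% (11.9% to 14.4%) on chromosome 19 to 25.8% (24.5% to 27.1%) on chromosome 1. Chromosome 19, known for its high gene density, also had the lowest ratio of covered length, with 0.466 bp of H3K9ac for each bp of H3K27ac, and the largest share of H3K9ac inside H3K27ac, 83.8%. Chromosome 1 was at the other end, with a ratio of 0.668 and 73.7%.

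**Figure D4:**
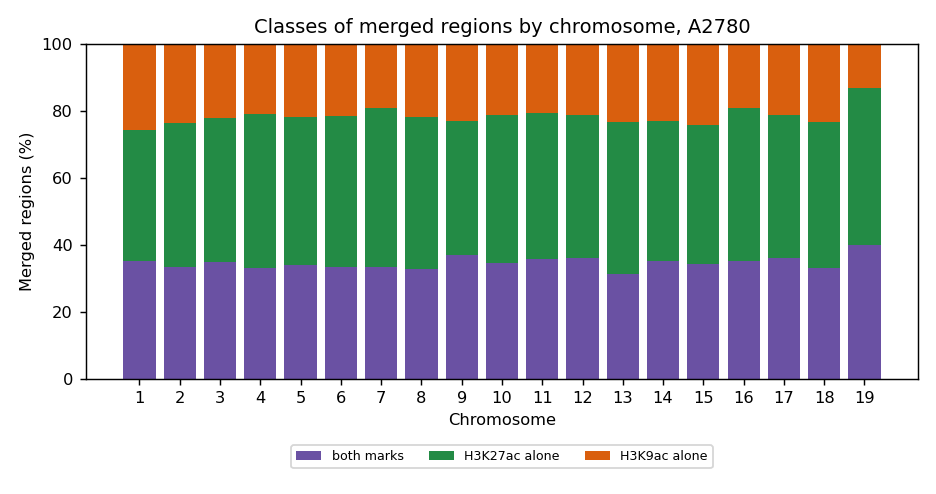
Share of the merged A2780 regions (y axis, %) on each autosome with listed peaks (x axis) that had both marks (purple), H3K27ac alone (green) or H3K9ac alone (orange). The share with H3K9ac alone is lowest on chromosome 19 (13.1%) and highest on chromosome 1 (25.8%).

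The high H3K9ac-alone share and ratio of covered length on chromosome 1 came from the side after its widest stretch without peaks. This gap runs from 121485601 to 142586000 and contains the centromere. Before this gap, H3K9ac alone took 21.3% (19.7% to 22.9%) of 2586 regions, close to the 20.9% (20.4% to 21.3%) of the other autosomes. After it, H3K9ac alone took 32.9% (30.7% to 35.2%) of 1622 regions, H3K27ac alone 32.5% and both marks 34.6%. The ratio of covered length was 0.845 after the gap, 0.547 before it and 0.550 on the other autosomes. The share of H3K9ac length inside H3K27ac was below that of the other autosomes (79.4%) on both sides, with 76.2% before the gap and 71.4% after it. This split was chosen after its values were seen, and the stretch after the gap ends with the lists, whose last peaks on chromosome 1 end at 197172000 (H3K27ac) and 197172800 (H3K9ac).

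The A2780cis lists, which share no library with these, also had a higher ratio after the gap, with 0.788 against 0.528 before it and 0.579 on the other autosomes. H3K9ac alone took 22.8% (20.3% to 25.6%) of the A2780cis regions after the gap and 11.5% (10.04% to 13.2%) before it. List by list, the stretch after the gap held 7.09% of all bases covered by H3K9ac in A2780 and 6.29% in A2780cis. In the 6 H3K27ac lists it held between 4.03% (CAOV4) and 4.73% (A2780). Both H3K9ac lists thus lay above each H3K27ac list here. In windows of 10 Mb with at least 20 peaks of each mark, the median ratio was 0.577 over 226 windows in A2780. The 6 windows after the gap had ratios of 0.630 to 1.01 with a median of 0.876, and 5 of them were among the 9 windows over 0.8. The highest window, with a ratio of 1.26, was on chromosome 9 and held 30 H3K27ac and 37 H3K9ac peaks. Copy number was not analysed here, and its part in these values was not tested.

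**Figure D5:**
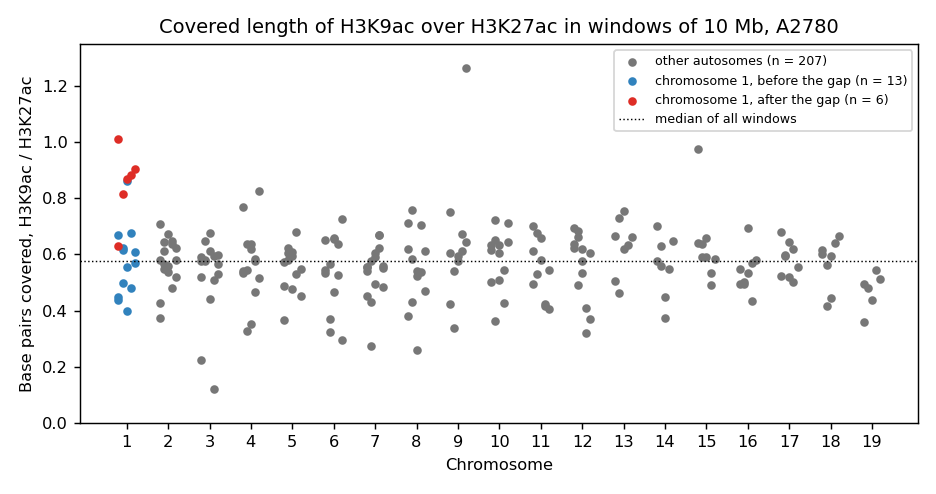
Covered length of H3K9ac divided by that of H3K27ac (y axis) in windows of 10 Mb with at least 20 peaks of each mark in A2780, by chromosome (x axis), with chromosome 1 before its peak-free gap in blue, after it in red and the other autosomes in gray. The 6 windows after the gap lie between 0.630 and 1.01, whereas the median of all 226 windows (dotted line) is 0.577.

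At single loci, the marks were compared in windows that the study displayed for their H3K27ac, so these are examples and not a sample of the genome. In the window of *TUT1* to *GANAB* on chromosome 11, 4 H3K27ac peaks of 6.4 to 11.4 kb lay close together. *TUT1* encodes a terminal uridylyltransferase and *GANAB* the catalytic subunit of glucosidase II. The 4 H3K9ac peaks there measured 1.0 to 3.6 kb, and 3 of them were nested, so that H3K9ac had 0.340 of the H3K27ac length. The window of the microRNA gene *MIR29A* and the long noncoding RNA gene *LINC-PINT* on chromosome 7 held 22 H3K9ac peaks, of which 19 were nested and none was alone, while 5 of its 14 H3K27ac peaks lacked H3K9ac. H3K9ac was in more pieces than H3K27ac there and reached 0.723 of its length. In the *SLC66A1L* window on chromosome 3, 6 H3K9ac peaks lay on 3 H3K27ac peaks, with a ratio of 0.756. 

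The window of *RAD51B*, a gene of homologous recombination, went the other way. None of its 6 H3K9ac peaks was nested and 5 were alone, with widths of 0.2 to 1.6 kb, and 4 of its 5 H3K27ac peaks were alone, so that the marks were sparse and mostly apart. *ZNF841*, a zinc finger gene on chromosome 19, had 1 H3K27ac peak of 1.6 kb at chr19:52597801-52599400 with a nested H3K9ac peak of 0.8 kb. The single H3K27ac peak in the window of *JAK1*, the cytokine receptor kinase, at chr1:65431001-65432200, had no H3K9ac peak. The *LINC00871* window held 1 H3K27ac peak and no H3K9ac peak, and the *FGF10* window, around a growth factor gene, held none of either mark in A2780.

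The promoters of *GANAB*, in the window with both marks, and of *FGF10*, in the window with no peak, are printed as examples of the sequence at such genes. Each line gives the 250 bases before the annotated start on the strand of the gene, from RefSeq (GRCh38.p14), with CG dinucleotides in capitals. The lists use another build (hg19), and whether these bases lie inside a peak or a window was not analysed here.
GANAB: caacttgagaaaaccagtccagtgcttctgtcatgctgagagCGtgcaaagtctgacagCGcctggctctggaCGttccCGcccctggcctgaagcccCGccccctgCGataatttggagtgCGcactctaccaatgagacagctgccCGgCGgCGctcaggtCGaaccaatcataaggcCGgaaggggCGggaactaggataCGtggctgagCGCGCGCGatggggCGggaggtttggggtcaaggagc
FGF10: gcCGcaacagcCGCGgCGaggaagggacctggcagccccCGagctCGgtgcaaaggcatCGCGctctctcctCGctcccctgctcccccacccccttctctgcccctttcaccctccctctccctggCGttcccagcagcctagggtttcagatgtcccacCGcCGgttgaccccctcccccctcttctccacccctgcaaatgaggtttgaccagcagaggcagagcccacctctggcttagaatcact
The *GANAB* promoter holds 19 CG and the *FGF10* promoter 12. CG reads the same on both strands. Over 35116 promoters of this length, 93.9% held at least 1 CG and the median was 11 (quartiles 3 and 23), so both counts lie within the middle of this range.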

How the data were processed

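H3K27ac and H3K9ac ChIP-seq of A2780 cells was analysed, with 6 further lists looked up. Per the labels and their methods, the authors aligned reads with Bowtie2, applied a quantile normalization and used MACS2 as peak caller (GRCh37/hg19 in the submitters' processing notes), with 1 list per sample. Columns used were chromosome, start and end. The score that the authors deposited is 0 in every row and was used only for this check. Peaks on the autosomes were taken, which left out 733 H3K27ac and 346 H3K9ac rows. Input libraries hold no list here and were not used.

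Peaks sharing at least 1 bp were merged and classed. No test was made, since each mark has 1 library. Depth per sample is unknown, so the precision of single peaks is unknown. Regions were named by rule: the 5 widest of each class, the 5 with the most H3K9ac peaks in 1 H3K27ac peak, and the 5 with the largest excess of H3K9ac-covered length. Gene windows are those of the study's browser views, and 4 of the 12, and 1 region named by these rules, are not reported here. Members, windows and lists were chosen with earlier results of these data known. Gene annotation, transcription start distance, base composition and marker genes need an hg19 annotation or genome and were not analysed here. For *GANAB* and *FGF10*, 1 RefSeq promoter each was matched by symbol. The classing was tested on simulated data of 28000 regions, and all 3 classes were recovered. Alternatives were another overlap, distances of 1 and 5 kb, wide peaks, equal list sizes, all chromosomes, the knockdown H3K27ac lists and, added after seeing the data, leaving out chromosome 1. Python 3.11.15, numpy 2.4.6, pandas 2.3.3, SciPy 1.17.1 and matplotlib 3.10.9 were used.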

Additional observations from a re-analysis of the deposited data

Results flagged for a closer look

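Peaks on chromosome X were outside the comparison, which used autosomes. There, 199 of 709 A2780 H3K27ac peaks overlapped an H3K9ac peak, or 28.1% (24.9% to 31.5%), against 41.7% to 48.7% on the single autosomes. H3K9ac covered 0.31 bp for each bp of H3K27ac, against 0.466 to 0.668 on the autosomes. Counted from H3K9ac, 241 of 330 peaks (73.0%, 68.0% to 77.5%) overlapped H3K27ac, which lies within the autosomal range of 62.0% to 79.1%. Merged regions on chromosome X had both marks in 24.8%, H3K27ac alone in 64.0% and H3K9ac alone in 11.2% of 797 cases. These values stand out as a signal outside the main measurement, and the difference from the autosomes was not tested.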

How the results depend on the processing

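Values are given in the order share of H3K27ac peaks with H3K9ac, share of H3K9ac peaks with H3K27ac, and then the others by name. With an overlap of 50% of the shorter peak, the partner shares were 44.0% and 64.5%, and the shared base pairs were 77.8% of H3K9ac and 43.9% of H3K27ac. With partners up to 1 kb apart, the partner shares were 49.3% and 71.1%. Up to 5 kb apart, they were 63.5% and 80.9%, with 4288 H3K9ac-alone regions and a width ratio of 0.667. With peaks over 2 kb only, partner shares were 51.8% and 89.0%, with 7109 regions of both marks, 6789 of H3K27ac alone and 1018 of H3K9ac alone. Shared base pairs were 83.4% of H3K9ac and 43.0% of H3K27ac, the width ratio was 0.762 and nested H3K9ac 49.7%. With the wider 50% of each list, partner shares were 58.5% and 83.6%, with 7982, 5792 and 1846 regions in the same order of classes. Shared base pairs were 81.1% and 45.6%, the width ratio 0.733 and nested H3K9ac 49.3%. Equal numbers of peaks, the widest of each list, gave partner shares of 54.3% and 64.7%, shared base pairs of 78.3% and 45.1%, and a width ratio of 0.694. With all standard chromosomes, 44.0% of the H3K27ac base pairs were shared. With the shMBD3.26 H3K27ac list in place of that of A2780, partner shares were 50.9% and 59.6%, shared base pairs 70.8% and 50.4%, the width ratio 0.813 and nested H3K9ac 30.3%. With shMBD3.232, partner shares were 58.9% and 58.2%, shared base pairs 71.0% and 49.1%, the width ratio 0.778 and nested H3K9ac 32.2%, with 7788 H3K27ac-alone regions. There the order of the partner shares turned, by less than 1 percentage point, and the cause was not tested. Without chromosome 1, an alternative added after seeing the data, shared base pairs were 79.4% and 43.7% and nested H3K9ac 41.5%. The other 40 values stayed within the interval of the reported share or ratio, or within 1.5 times the reported count, but the order of the classes turned among them. For the length shares the intervals used were 78.5% to 78.8% (H3K9ac) and 44.2% to 44.5% (H3K27ac), and for the width ratio 0.696 to 0.714. The last belongs to a median and is not a Wilson interval. Neighbouring bases of a peak are not independent, so the intervals of the length shares are too narrow. Regions with both marks outnumbered H3K27ac alone with equal numbers of peaks (11816 against 10253), at 5 kb (10963 against 10186) and with shMBD3.232 (10803 against 7788), as they did with peaks over 2 kb and the wider 50%. With shMBD3.232, H3K9ac alone (9369) also outnumbered H3K27ac alone. With shMBD3.26, both marks and H3K27ac alone were nearly equal (11394 against 11425). In every setting, more of the H3K9ac length lay inside H3K27ac than the reverse, and the width ratio was below 1. Both length shares divide the same shared length, so their order only restates that H3K9ac covered fewer bases in each setting. No paired analysis was possible because each mark has 1 library and the results come from no test, and for the same reason no replicate could be left out. The lists hold no depth or signal, so missing peaks cannot be told apart from weak ones, and narrow single-mark regions are the least certain.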
